A study of Mus musculus with 72 samples.

Results

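The colons compared here came from mice with TNBS colitis that had received both TNFR-Ig and anti-TWEAK (combination mice), and from naive mice, both of experiment 10. The series holds 72 arrays of mouse colon, 1 array per mouse, and 15 of them belong to this comparison: 7 of combination mice (numbered 1, 2, 3, 5, 6, 7 and 8) and 8 of naive mice (numbered 1 to 8). They were chosen by treatment and experiment labels alone. All mice were Balb/c wild type. Combination mice were injected intraperitoneally with 0.3 mg/kg TNFR-Ig and 10 mg/kg anti-TWEAK (antibody mP2D10), received 70 µg TNBS per g body weight into the rectum 1 h later on day 0, and were killed on day 4. Naive mice had neither disease nor treatment. For context, the same experiment had 7 control antibody mice (10 mg/kg of an IgG2a against human CD20, then TNBS) and 4 untreated mice (TNBS with no injection). Naive mice were run in experiment 10 only, so the 8 combination mice of experiment 7 have no naive mice of their own. The labels give no age or sex. RNA was taken from pieces cut from frozen, rolled colon, so every level is an average over all cells in the piece, and fewer cells of a type cannot be told apart from less RNA per cell. The question this comparison answers is which transcript differences from healthy colon were present on day 4 in mice given both blockers.

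TNBS with ethanol injures the colonic mucosa from the lumen and sets off a T cell and myeloid response with ulceration, and the tissue then repairs. TNF, made by macrophages and T cells, acts through the receptors encoded by Tnfrsf1a and Tnfrsf1b and activates NF-kB, which induces chemokines, adhesion molecules and proteases. TWEAK, a related cytokine, acts through Fn14, encoded by Tnfrsf12a, which is low in healthy epithelium and rises after injury. TNFR-Ig is a soluble TNF receptor fused to an immunoglobulin that binds TNF, and anti-TWEAK is an antibody that blocks TWEAK.

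Levels are the authors' log2 values, with a lowest value of 2.08. A level within 0.1 of that floor is called at the floor below. A gene was called where limma's moderated test gave a Benjamini-Hochberg adjusted p under 0.05 over all 12534 genes tested. Differences are given in log2 units with their standard error, so that 1 unit is a doubling. Where the 7 or 8 arrays of a group are given as a range, the median stands beside it.

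Before the results, 4 features of the arrays bear on them. The first naive mouse carries contradictory labels: its title and source name say naive, while its treatment field names the combination. Its array correlated with the other naive arrays at 0.989 to 0.992 and with the combination arrays at 0.963 to 0.993, and without it 4405 genes were called. Naive mouse 5 stood apart in several inflammatory genes, given below. The combination mice differed widely among themselves. RNA quality moved with the groups: the Actb 3′ minus 5′ difference, which is larger where RNA is more degraded, was 1.12 to 1.50 (median 1.20) in combination arrays, against 1.00 to 1.14 (median 1.13) in naive arrays (two-sided exact permutation test over 6435 arrangements, p = 0.00171). The highest of these, 1.50, belonged to combination mouse 1 and the next, 1.30, to combination mouse 8. With this difference as a covariate 2536 of the 12534 genes were called against naive mice, 1572 higher and 964 lower. These totals are the background for list counts given with the covariate. Named genes that lost their call with it are marked where they are given. Array medians of the 15 arrays lay between 4.64 and 4.70. The colon markers Cdx1, Cdx2, Muc2, Car1, Slc26a3, Vil1 and Krt20 were at 11.82 or above on all 15 arrays.

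In combination mice 4775 of the 12534 genes differed from naive mice (38.1%), 2743 higher (21.9%) and 2032 lower (16.2%). Most differences were small, with a median size of 0.304 among called genes, and 262 genes were higher (2.09%) and 114 lower (0.91%) by at least 1 unit. All 7 combination arrays lay above all 8 naive arrays for 757 genes (6.04%) and below them for 502 (4.01%). These shares of all genes are the background for the counts of each list below, except counts given with the Actb covariate. Among the 12 largest rises were the myeloid and granulocyte genes Clec4d, Il1b, S100a8, S100a9 and Lcn2, the chemokines Cxcl2, Cxcl3 and Cxcl5, the proteases Mmp7 and Mmp9, the protease inhibitor Timp1, and Dcpp3, a member of a family of secreted mucosal proteins. Among the 12 largest falls were 9 keratin or keratin-associated genes of hair, the glutamate receptor subunit Grin3a and the clock genes Ciart and Hlf. In control antibody mice 7068 genes differed from naive mice (56.4%), 3733 higher (29.8%) and 3335 lower (26.6%), with a median size of 0.355 among those called. Both comparisons use the same naive arrays. Set directly against control antibody mice, combination mice differed in 1601 genes (12.8%), 951 higher (7.59%) and 650 lower (5.19%). That count moved widely: it was 4 with the replicate number as a block, 150 with the Actb covariate, 2109 without combination mouse 2 and 3908 in a fit of all 72 arrays. The block fit holds only the 12 arrays whose number both groups share, and the same 12 arrays gave 288 without the block, an alternative chosen after seeing the data. The count of 1601 became 787 to 1062 on leaving out any 1 of control antibody mice 2, 4, 5 and 7 and combination mice 5, 7 and 8. Of the 33 genes named below or in the closing section that were called against control antibody mice, 2 were called with the Actb covariate (Cxcl1 and Traf5) and 0 in the limma fit with the block, where all 33 had an unadjusted p under 0.05. The 33 were picked by their call in the same comparison, whose arrays the block fit reuses, so those unadjusted values are no separate support. For 13 of the 33 genes the call held whichever single array was left out.

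**Figure D1:**
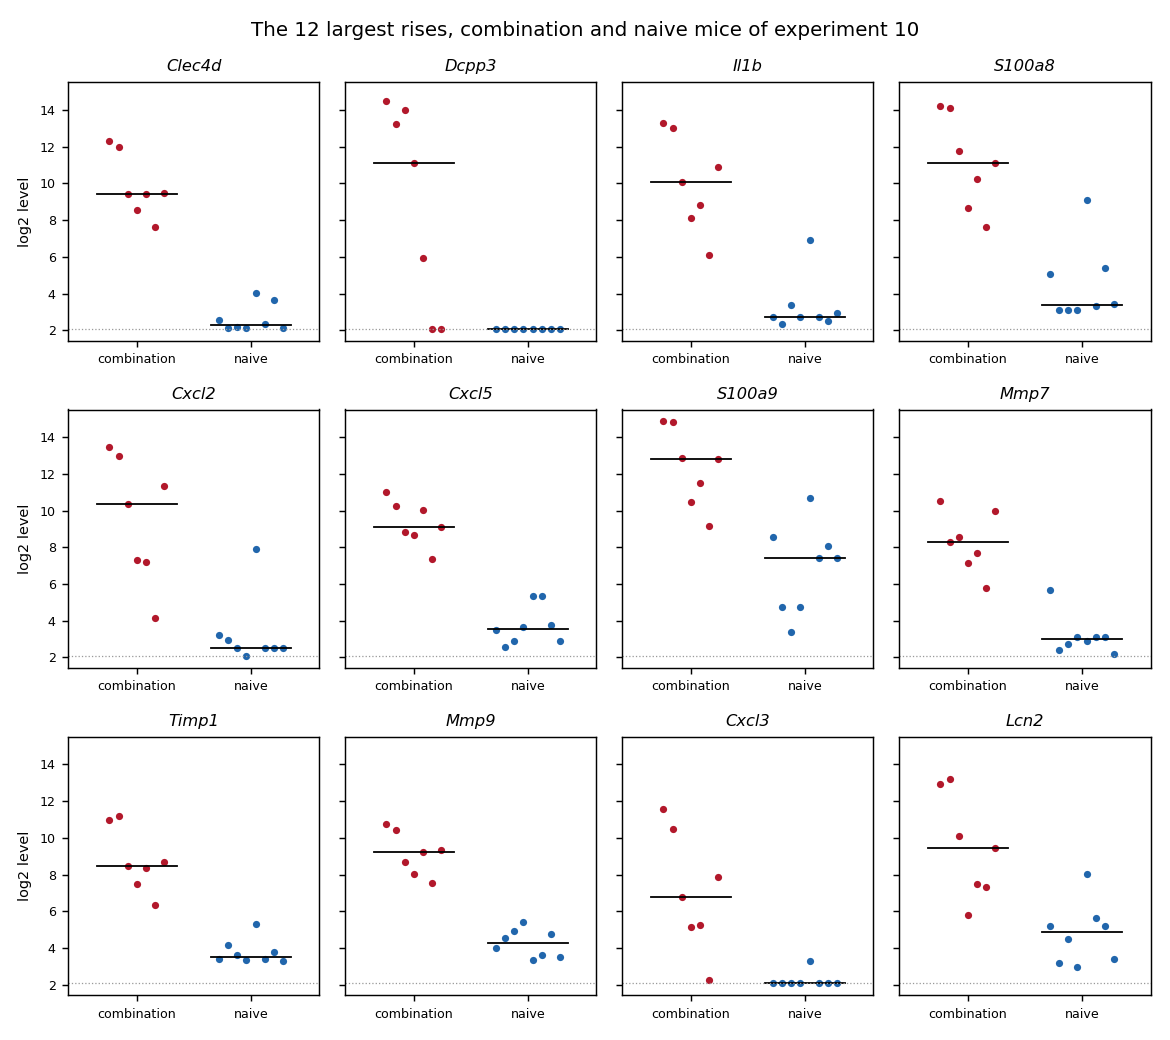
Log2 levels of the 12 genes with the largest rises, 1 point per array, in combination mice (7, left of each panel) and naive mice (8, right), with the median as a bar and the table's floor of 2.08 dotted. The combination arrays of Clec4d, Cxcl5, Mmp7, Timp1 and Mmp9 lie above every naive array, while those of Dcpp3 spread between the floor and 14.51. The call of Dcpp3 was lost with the Actb covariate.

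The promoters of Cxcl1, Cxcl2 and Cxcl3 are shown because NF-kB, which TNF and TWEAK receptors activate, is known to act on them and they hold a kB motif, and the promoters of the clock genes Ciart and Tef because both fell and hold an E-box, the site bound by the ARNTL and CLOCK proteins. Each run is the 250 bases before the gene's start in RefSeq (build GRCm38.p6), 5′ to 3′ on the gene's strand. Capitals mark matches in the chemokines to a kB motif (GGGA, any 4 bases, then CC) on either strand, where matches on both strands can overlap. In the clock genes they mark the E-box CACGTG. The chemokine windows lie at chr5:90890995-90891244 (+) for Cxcl1, chr5:90903649-90903898 (+) for Cxcl2 and chr5:90785851-90786100 (+) for Cxcl3. The clock windows lie at chr3:95882229-95882478 (-) for Ciart and chr15:81802423-81802672 (+) for Tef.
Cxcl1: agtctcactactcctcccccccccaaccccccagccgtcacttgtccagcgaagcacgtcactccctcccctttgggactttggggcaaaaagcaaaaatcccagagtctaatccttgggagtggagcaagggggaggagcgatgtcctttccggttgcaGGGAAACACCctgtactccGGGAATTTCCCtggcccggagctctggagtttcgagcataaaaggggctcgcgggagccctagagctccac
Cxcl2: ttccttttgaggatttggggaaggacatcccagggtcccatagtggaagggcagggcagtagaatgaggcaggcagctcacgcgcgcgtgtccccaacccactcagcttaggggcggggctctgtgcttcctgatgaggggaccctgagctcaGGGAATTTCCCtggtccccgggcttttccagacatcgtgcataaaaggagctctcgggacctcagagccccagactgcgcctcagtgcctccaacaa
Cxcl3: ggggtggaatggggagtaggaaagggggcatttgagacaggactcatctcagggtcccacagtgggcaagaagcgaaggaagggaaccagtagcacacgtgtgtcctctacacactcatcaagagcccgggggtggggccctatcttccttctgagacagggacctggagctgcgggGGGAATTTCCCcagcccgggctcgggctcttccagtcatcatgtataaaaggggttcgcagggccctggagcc
Ciart: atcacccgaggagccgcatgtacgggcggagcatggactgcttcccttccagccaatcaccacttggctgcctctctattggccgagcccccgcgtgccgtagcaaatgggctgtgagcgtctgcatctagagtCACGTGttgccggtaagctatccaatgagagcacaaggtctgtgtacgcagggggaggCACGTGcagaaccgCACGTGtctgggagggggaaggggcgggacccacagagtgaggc
Tef: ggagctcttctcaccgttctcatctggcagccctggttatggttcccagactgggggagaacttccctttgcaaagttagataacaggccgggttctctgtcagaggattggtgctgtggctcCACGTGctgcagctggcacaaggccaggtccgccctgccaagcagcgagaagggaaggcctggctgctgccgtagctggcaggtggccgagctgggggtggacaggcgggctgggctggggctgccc
The kB motif occurs in 17.6% of the 32851 promoter windows of this length. Of the 12 largest rises, 10 were in the promoter table and 3 held the kB motif (Dcpp3, Cxcl2 and Cxcl3). Of the 5 neutrophil-attracting chemokines called higher, 4 were in the table and 3 held it, while Pf4 held none. CACGTG occurs in 6.02% of windows, and in 2 of the 8 clock genes that fell (Ciart, with 3 matches, and Tef) and 1 of the 4 that rose (Cry1). Dbp held none in this window. A match is a string of letters, and no binding was measured here.

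Granulocyte genes were higher in combination mice than in naive mice, and the size varied from mouse to mouse. Of 16 neutrophil markers tested, 9 rose and none fell, with a median difference of 3.01. In control antibody mice 15 of the 16 were higher than in naive mice (29.8% of all genes were), with a median of 5.88. Set directly against control antibody mice, 0 of the 16 were called in combination mice by limma, where 12.8% of all genes were. In that test 7 of the 16 had an unadjusted p under 0.05, as did 3946 of the 12534 genes. Against the 4 untreated mice, 11 of the 16 were called lower and 0 higher, with a median difference of -4.29. Of all genes, 3.99% were lower and 9.54% higher there. Clec4d, a lectin receptor of myeloid cells, lay at 7.62 to 12.30 (median 9.45) in combination mice, against 2.13 to 4.05 (median 2.26) in naive mice, a difference of 7.19 ± 0.63 (adjusted p = 6.62e-06). S100a8, 1 chain of the calprotectin that granulocytes carry, lay at 7.64 to 14.20 (median 11.14) in combination mice, against 3.12 to 9.07 (median 3.38) in naive mice, a difference of 6.66 ± 1.11 (adjusted p = 0.000481). The naive range of S100a8 reached up to mouse 5, and 5 of 7 combination arrays lay above it. S100a9, the partner chain, differed by 5.49 ± 1.12 (adjusted p = 0.0018), and Lcn2, the siderophore-binding lipocalin of granulocytes and injured epithelium, by 4.72 ± 1.12 (adjusted p = 0.00461). Lcn2 was not called with the Actb difference as a covariate. Il1r2, the decoy receptor for interleukin 1, was at 2.47 to 9.50 (median 4.90) in combination mice, against 2.08 to 2.45 (median 2.25) in naive mice, with all 7 above the naive range. It differed by 3.30 ± 0.94 (adjusted p = 0.0131) and was not called with the Actb covariate either, under which 5 of the 16 markers were called higher.

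Some genes of the same cells lay near the naive level in several combination mice. Cxcr2, the receptor through which granulocytes follow these chemokines, was at 2.17 to 7.75 (median 3.29) in combination mice, against 5.09 to 8.44 (median 7.33) in control antibody mice and 2.08 to 3.08 (median 2.08) in naive mice. It missed the threshold in combination against naive mice, at 1.97 ± 0.80 (adjusted p = 0.0643). Clec4e, a relative of Clec4d that senses mycobacterial lipid, was at 2.08 to 10.02 (median 3.32) in combination mice, against 5.21 to 11.08 (median 8.79) in control antibody mice, and at the floor on all 8 naive arrays, and it also missed the threshold against naive mice (adjusted p = 0.0539). Ptx3, a secreted pattern recognition protein, showed the same order of medians, with 2.08 to 8.50 (median 2.71) in combination mice, against 5.29 to 10.02 (median 7.04) in control antibody mice and 2.08 to 2.15 (median 2.08) in naive mice (2.18 ± 0.92, adjusted p = 0.0751 against naive). Each of these 3 genes was called in at least 1 alternative. Chil3, a chitinase-like protein of myeloid cells, was just inside the threshold (2.97 ± 1.09, adjusted p = 0.0432) and was lost under 19 of the alternatives, among them the Actb covariate and leaving out any 1 naive mouse, or combination mouse 1, 2, 3 or 8.

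The chemokines that draw granulocytes were the group with the largest median difference among the inflammatory lists, 3.70 over the 6 tested, of which 5 rose (3 with the Actb covariate). Cxcl5, which epithelium and stroma make, lay at 7.34 to 11.01 (median 9.11) in combination mice, against 2.59 to 5.37 (median 3.57) in naive mice, a difference of 5.58 ± 0.56 (adjusted p = 1.57e-05), with no overlap. Cxcl2 lay at 4.16 to 13.48 (median 10.36) in combination mice, against 2.08 to 7.93 (median 2.52) in naive mice (6.26 ± 1.32, adjusted p = 0.00227), and 4 of 7 combination arrays lay above the naive range, whose top is mouse 5. Cxcl3 lay at 2.26 to 11.59 (median 6.79) in combination mice, against 2.08 to 3.28 (median 2.08) in naive mice, where 7 of 8 arrays were at the floor (4.82 ± 1.08, adjusted p = 0.00335, not called with the Actb covariate). Cxcl1 stood at 2.55 to 9.99 (median 4.63) in combination mice, against 8.13 to 10.68 (median 9.40) in control antibody mice and 2.55 to 3.59 (median 3.50) in naive mice. It was called against naive mice (2.57 ± 0.94, adjusted p = 0.0428) and against control antibody mice (-3.50 ± 1.06, adjusted p = 0.0469), both close to the threshold, and the first call was lost under 18 alternatives, among them the Actb covariate and leaving out any 1 naive mouse, or combination mouse 1, 2 or 8. Pf4, the platelet chemokine, differed by 0.55 ± 0.10 (adjusted p = 0.000865). Il1b, the interleukin made by activated myeloid cells, lay at 6.12 to 13.32 (median 10.07) in combination mice, against 2.36 to 6.92 (median 2.73) in naive mice (6.77 ± 1.02, adjusted p = 0.000226), with 6 of 7 arrays above the naive range. Interleukin 6 itself did not pass: Il6 was at the floor on 4 of 7 combination arrays and on all 8 naive arrays, with 2.08 to 7.38 (median 2.08) in combination mice, against 3.26 to 8.42 (median 6.79) in control antibody mice (1.44 ± 0.80, adjusted p = 0.172 against naive). Osmr, the receptor for oncostatin M, a cytokine of the same family, was higher by 1.02 ± 0.19 (adjusted p = 0.00087), with all 7 combination arrays above the naive range.

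The combination mice did not stand at 1 level. The median over the neutrophil markers of the difference from the naive mean was 6.79 in mouse 1, 6.57 in mouse 2, 2.79 in mouse 3, 0.33 in mouse 5, 2.17 in mouse 6, 0.02 in mouse 7 and 2.61 in mouse 8, so that mice 1 and 2 were highest and mouse 7 was near the naive mean. For the matrix proteases and inhibitors the same mice, in that order, had 4.88, 4.20, 1.96, 0.95, 3.43, 0.77 and 2.51. For the macrophage markers they had 1.39, 1.67, 0.96, 0.64, 0.72, 0.43 and 1.09. For the collagens they had 0.43, 0.46, 0.39, 0.47, 0.60, 0.24 and 0.59, a narrower spread, and for the cell cycle genes 0.34, 0.30, 0.53, 0.28, 0.37, 0.30 and 0.51. Combination mouse 7 was thus near naive in neutrophil markers and among the others in cell cycle genes. These per-mouse values describe the mice and were not used to group them. Over all genes the spread was only slightly larger than in naive mice: the median SD was 0.129 in combination mice and 0.122 in naive mice.

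**Figure D2:**
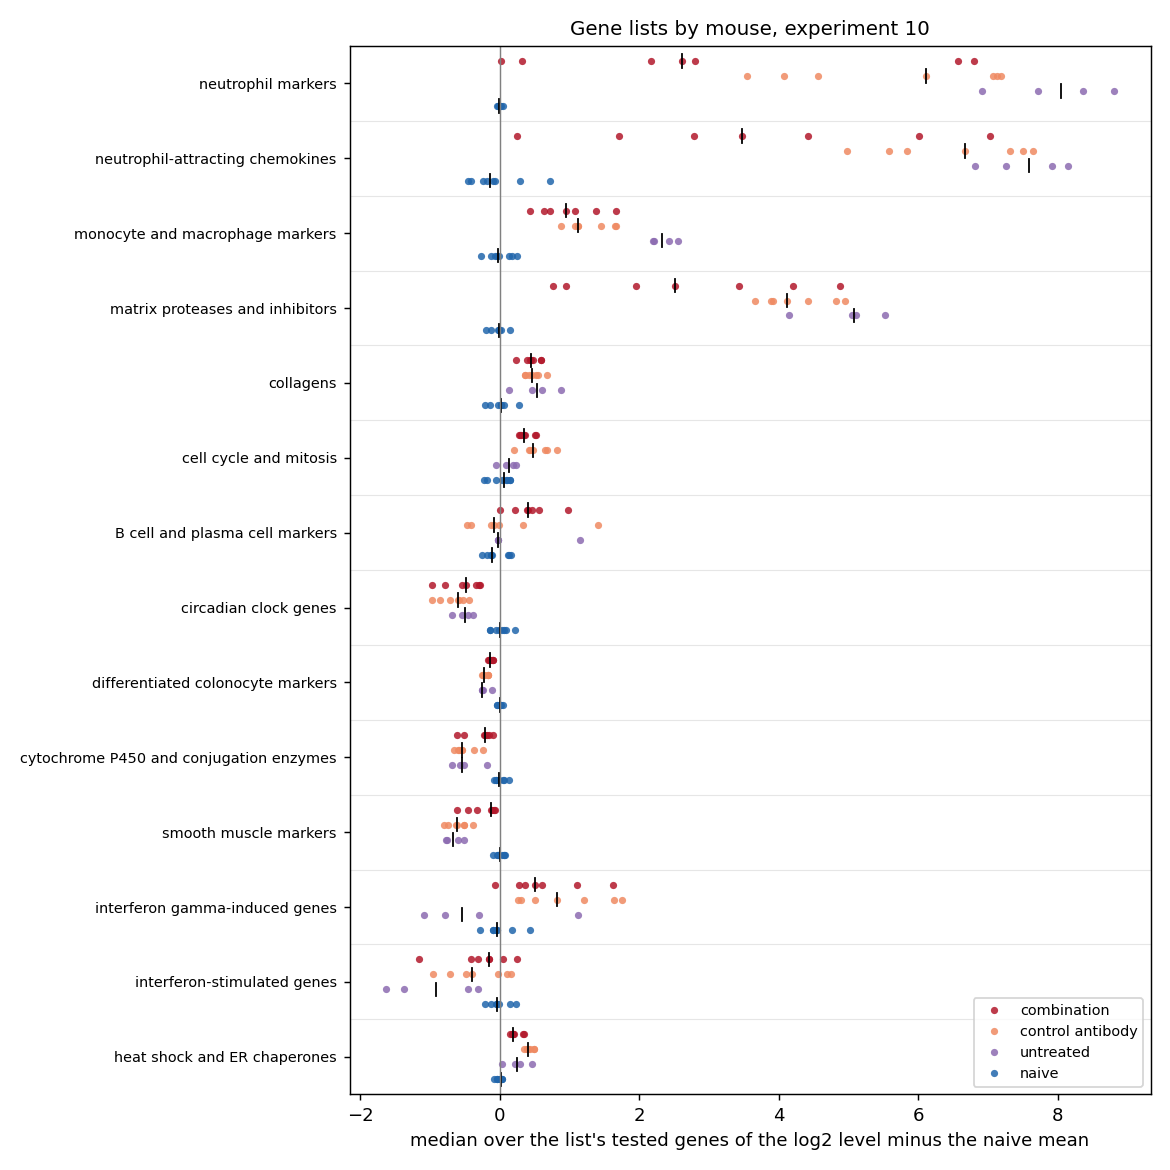
For 14 gene lists, 1 point per mouse gives the median over the list's tested genes of the log2 level minus the naive mean, for combination (7), control antibody (7), untreated (4) and naive (8) mice of experiment 10, from top to bottom within a list, with the group median as a black bar. The combination mice run from 0.02 to 6.79 for neutrophil markers and from 0.28 to 0.53 for cell cycle genes.

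Monocyte and macrophage genes were higher in nearly all members tested: 23 of 25 rose and 1 fell, with a median difference of 0.87. Of the 25, 14 had every combination array above every naive array (6.04% of all genes did). In control antibody mice 23 of the 25 were higher and 1 lower, with a median of 1.40. Fcgr4, an activating Fc receptor of monocytes, lay at 7.33 to 9.50 (median 8.20) in combination mice, against 5.18 to 6.34 (median 5.86) in naive mice, a difference of 2.61 ± 0.32 (adjusted p = 6.03e-05). Fcgr1, the high-affinity Fc receptor, differed by 2.60 ± 0.35 (adjusted p = 0.000103), and Ccr2, the receptor that brings monocytes out of blood, by 2.48 ± 0.27 (adjusted p = 2.65e-05). The levels of Ccr2 in combination mice, 7.89 to 9.44 (median 9.13), overlapped those of control antibody mice, 8.94 to 9.37 (median 8.99), and lay above those of naive mice, 5.59 to 7.47 (median 6.52). The 1 member that fell was Mertk, a receptor of resident macrophages for dying cells, which fell by 0.60 ± 0.11 (adjusted p = 0.00079). Ncf1 and Cybb, subunits of the phagocyte oxidase, were higher by 2.70 ± 0.39 (adjusted p = 0.00018) and 1.14 ± 0.16 (adjusted p = 0.000124). Arg1, the arginase of macrophages, differed by 2.90 ± 0.71 (adjusted p = 0.00574), with 4 of 7 combination arrays above the naive range, and was not called with the Actb covariate. Of 13 CC chemokines tested, 3 rose, close to the 21.9% of all genes, and 0 fell. Ccl8 was higher by 1.91 ± 0.32 (adjusted p = 0.000526) and Ccl9 by 0.75 ± 0.09 (adjusted p = 6.04e-05). The monocyte-attracting Ccl2 (1.27 ± 0.76, adjusted p = 0.204) and Ccl7 (1.29 ± 0.67, adjusted p = 0.146) did not pass. Ccl2 stood at 4.30 to 10.15 (median 6.51) in combination mice, against 8.19 to 10.73 (median 9.71) in control antibody mice and 4.95 to 6.51 (median 5.81) in naive mice.

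Of the complement genes, 11 of 13 tested rose and none fell, with a median of 0.82, and 6 were called higher with the Actb covariate. Cfp, the stabiliser of the alternative pathway convertase, was higher by 1.83 ± 0.30 (adjusted p = 0.000408), C3ar1, the receptor for the anaphylatoxin of C3, by 1.42 ± 0.30 (adjusted p = 0.00233), and Clu, the complement-inhibiting chaperone clusterin, by 1.59 ± 0.32 (adjusted p = 0.00161). All 7 combination arrays of these 3 genes lay above all naive arrays. Clu was at 11.70 to 14.25 (median 12.43) in combination mice, against 10.70 to 11.61 (median 11.16) in naive mice.

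Receptors that the blocked cytokines use were higher than in naive mice. Of the 9 genes of the TNF and TWEAK list that were tested, 4 rose and none fell (21.9% and 16.2% of all genes did), with a median difference of 0.19. Tnfrsf12a, which encodes Fn14, lay at 7.27 to 9.18 (median 8.32) in combination mice, against 8.64 to 9.30 (median 8.99) in control antibody mice and 6.60 to 8.18 (median 7.38) in naive mice. Its difference from naive mice was 1.00 ± 0.29 (adjusted p = 0.0146), with 5 of 7 combination arrays above the naive range, and its difference from control antibody mice was -0.59 ± 0.27 (adjusted p = 0.145). Tnfrsf1b, the receptor found mostly on leukocytes, lay at 9.77 to 10.68 (median 10.22) in combination mice, against 10.61 to 11.08 (median 10.82) in control antibody mice and 9.40 to 9.80 (median 9.67) in naive mice. It was called against both, at 0.54 ± 0.12 (adjusted p = 0.00276) from naive mice and -0.62 ± 0.13 (adjusted p = 0.0148) from control antibody mice. Tnfrsf1a, the widely expressed receptor, differed by 0.35 ± 0.09 (adjusted p = 0.00969), and Cd163, a macrophage scavenger receptor that binds TWEAK, by 0.56 ± 0.20 (adjusted p = 0.0359). The calls of Tnfrsf12a and Tnfrsf1a were lost with the Actb covariate, and that of Cd163 under 14 alternatives, among them the Actb covariate and leaving out naive mouse 1, 4, 5 or 8, or combination mouse 1 or 3. With the Actb covariate 1 gene of this list was called.

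The adaptors that carry the signal did not pass in combination against naive mice. The differences were -0.13 ± 0.16 (adjusted p = 0.531) for Traf1, 0.09 ± 0.10 (adjusted p = 0.516) for Traf2, 0.19 ± 0.10 (adjusted p = 0.144) for Traf5, -0.04 ± 0.03 (adjusted p = 0.257) for Tradd and 0.06 ± 0.04 (adjusted p = 0.267) for Birc2. These are for the brightest probe set of each gene. A dimmer Tradd probe set, not in the main fit, was at 3.02 to 4.86 (median 4.24) in combination mice, against 4.47 to 5.75 (median 5.10) in naive mice. Another was at 9.33 to 9.48 (median 9.41), against 9.37 to 9.69 (median 9.49). Traf5 lay at 7.06 to 7.33 (median 7.13) in combination mice, against 5.99 to 6.73 (median 6.70) in control antibody mice and 6.60 to 7.33 (median 6.98) in naive mice, and was higher in combination than in control antibody mice by 0.61 ± 0.10 (adjusted p = 0.00688), as was Traf1 by 0.59 ± 0.18 (adjusted p = 0.0436). Tnf was not tested, since its level was at most 2.83 on every array of the 4 groups, and Tnfsf12, the TWEAK gene, had no probe set of its own. Of the 22 NF-kB targets and feedback genes tested, 10 rose and 2 fell, and 5 were called higher with the Actb covariate. The adhesion molecule Icam1 was higher by 1.09 ± 0.18 (adjusted p = 0.00052), with all 7 combination arrays above the naive range, and Vcam1, which holds monocytes and lymphocytes, by 0.62 ± 0.13 (adjusted p = 0.00221). The feedback inhibitors did not pass, with 0.07 ± 0.07 (adjusted p = 0.386) for Nfkbia and -0.18 ± 0.11 (adjusted p = 0.209) for Tnfaip3. Selp, the endothelial P-selectin that starts leukocyte rolling, was higher than in naive mice (2.48 ± 0.51, adjusted p = 0.0018) and lower than in control antibody mice (-2.05 ± 0.55, adjusted p = 0.0303), at 5.06 to 9.11 (median 6.87) in combination mice, against 8.31 to 9.81 (median 9.33) in control antibody mice and 3.79 to 5.06 (median 4.78) in naive mice.

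**Figure D3:**
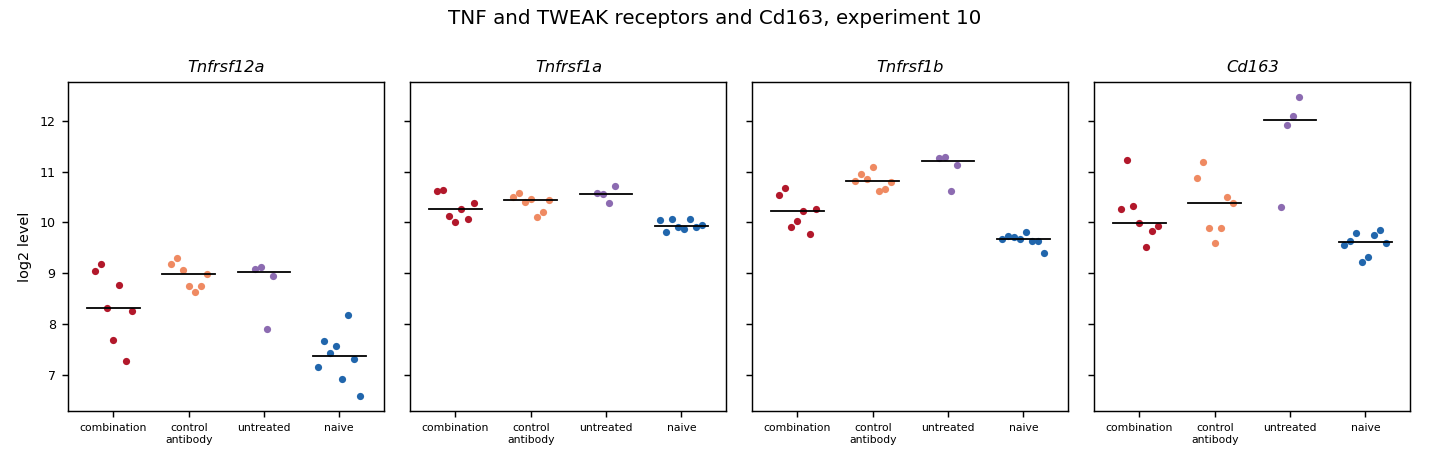
Log2 levels of Tnfrsf12a, Tnfrsf1a, Tnfrsf1b and Cd163, 1 point per array, in combination (7), control antibody (7), untreated (4) and naive (8) mice of experiment 10, with medians as bars. The combination median of Tnfrsf12a, 8.32, lies between the control antibody median, 8.99, and the naive median, 7.38.

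Matrix-degrading enzymes were among the genes farthest from the naive level. Of 17 matrix proteases and inhibitors tested, 13 rose and 1 fell, with a median of 2.80 (4.20 in control antibody mice). Of the 17, 11 had all combination arrays above all naive arrays (6.04% of all genes did). Mmp7, the matrilysin of epithelium, lay at 5.80 to 10.54 (median 8.31) in combination mice, against 6.63 to 9.23 (median 8.10) in control antibody mice and 2.17 to 5.66 (median 2.99) in naive mice. It differed from naive mice by 5.15 ± 0.66 (adjusted p = 7.92e-05) and from control antibody mice by 0.30 ± 0.66 (adjusted p = 0.795), with a 95% interval of the second from -1.12 to 1.71. Mmp9, the gelatinase of granulocytes and macrophages, differed from naive mice by 4.89 ± 0.48 (adjusted p = 1.31e-05), Mmp10, a stromelysin, by 4.48 ± 0.40 (adjusted p = 6.86e-06), and Adam12, a disintegrin protease of activated stroma, by 4.50 ± 0.38 (adjusted p = 4.96e-06). Timp1, the injury-induced inhibitor of these proteases, lay at 6.35 to 11.20 (median 8.45) in combination mice, against 3.30 to 5.29 (median 3.49) in naive mice (5.01 ± 0.63, adjusted p = 7.03e-05). The member that fell was Timp3, the matrix-bound inhibitor, which fell by 0.19 ± 0.05 (adjusted p = 0.00977). Mmp13, the collagenase, stood between the groups, at 5.03 to 8.18 (median 7.02) in combination mice, against 8.53 to 9.34 (median 8.70) in control antibody mice and 3.98 to 5.73 (median 4.78) in naive mice, and was called against both (2.08 ± 0.51, adjusted p = 0.00549 and -1.97 ± 0.49, adjusted p = 0.0234). The calls of Mmp13 and Timp3 against naive mice were lost with the Actb covariate.

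Collagens rose together and by small amounts: 13 of 15 tested were higher and 1 lower, with a median of 0.46, against 12 higher and 1 lower with a median of 0.48 in control antibody mice. Col18a1, whose product releases endostatin, lay at 7.71 to 9.13 (median 8.83) in combination mice, against 5.82 to 6.96 (median 6.70) in naive mice (2.04 ± 0.24, adjusted p = 4.09e-05). Col5a1, a collagen of fibril cores, was higher by 0.87 ± 0.12 (adjusted p = 0.000129), and the main fibrillar collagen gene Col1a1 by 0.37 ± 0.07 (adjusted p = 0.00146). Col8a1, a collagen of vessel walls, was the member that fell, by 0.57 ± 0.09 (adjusted p = 0.00044). Of 16 matrix crosslinking and matricellular genes 10 rose and none fell, led by Lox, the enzyme that crosslinks collagen, at 2.00 ± 0.24 (adjusted p = 4.86e-05). Grem1, a BMP antagonist of crypt-base stroma, was higher by 1.21 ± 0.21 (adjusted p = 0.000713) than in naive mice. Genes of blood vessels rose in 11 of 17 tested and fell in 1, with Esam and Cdh5, 2 junction proteins of endothelium, higher by 0.99 ± 0.11 (adjusted p = 2.65e-05) and 0.96 ± 0.18 (adjusted p = 0.00088). Among genes of coagulation and plasminogen activation 7 of 11 rose and none fell, including Plaur, the urokinase receptor (1.49 ± 0.25, adjusted p = 0.000456), and Plat, the tissue plasminogen activator (1.03 ± 0.15, adjusted p = 0.000157).

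Called genes of 2 interferon lists lay mostly in opposite directions. Of 16 genes induced by interferon gamma, 10 rose (21.9% of all genes did) and none fell, with a median of 0.58. Only 6 were called without combination mouse 8, and 1 with the Actb covariate. None of the 16 had all combination arrays above all naive arrays. In the 4 untreated mice 0 of the 16 were higher than in naive mice and 1 was lower, with a median of -0.33. Cxcl9, a T cell chemokine, was higher by 2.20 ± 0.46 (adjusted p = 0.00219) and Gbp2, a guanylate-binding protein, by 1.26 ± 0.32 (adjusted p = 0.00713). Gbp2 lay at 9.38 to 12.19 (median 10.58) in combination mice, against 8.97 to 9.99 (median 9.43) in naive mice, with 6 of 7 arrays above the naive range, and was not called with the Actb covariate. Of 17 genes of the type I interferon response, 8 fell and 1 rose (16.2% and 21.9% of all genes did), with a median of -0.19. The per-mouse median of this list was -1.15 to 0.25 (median -0.16) in combination mice. It overlapped that of naive mice, -0.22 to 0.24 (median -0.04). Ifit1, which binds foreign RNA, fell by 1.22 ± 0.23 (adjusted p = 0.00109), at 7.48 to 9.14 (median 8.93) in combination mice, against 7.04 to 9.49 (median 8.31) in control antibody mice and 9.55 to 10.22 (median 9.85) in naive mice. Rsad2, the antiviral enzyme viperin, fell by 0.59 ± 0.12 (adjusted p = 0.00148), and Irf7, the factor that drives the programme, fell by 0.73 ± 0.22 (adjusted p = 0.0191). The calls of these 3 genes were lost in the fit of all 72 arrays with a term for the experiment, in which the combination mice of experiment 7 take part, and that of Irf7 also with the Actb covariate.

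Antigen presentation and B cell genes were higher in combination mice. Of 7 MHC class II presentation genes 6 rose and 1 fell, and of 11 B cell and plasma cell markers 8 rose and none fell. In control antibody mice 1 of those 11 was higher than in naive mice and 1 lower. H2-Ab1, a class II chain, was higher by 0.64 ± 0.11 (adjusted p = 0.000652), and H2-DMa, which loads peptide, by 1.02 ± 0.17 (adjusted p = 0.00041). Ms4a1, which encodes CD20 of B cells, lay at 7.75 to 8.92 (median 8.79) in combination mice, against 4.93 to 8.92 (median 7.24) in control antibody mice and 4.08 to 8.85 (median 5.67) in naive mice. Its difference from naive mice was 2.27 ± 0.68 (adjusted p = 0.0167), but only 1 combination array lay above the naive range, since naive mouse 4 was at 8.85. Cd79b, a chain of the B cell receptor complex, differed by 1.55 ± 0.47 (adjusted p = 0.0188). Both calls were lost with the Actb covariate, under which 2 of the 11 markers were called higher. Cr2, the complement receptor of B cells and follicular dendritic cells, lay at 2.58 to 4.29 (median 3.61) in combination mice, against 2.20 to 4.05 (median 2.27) in control antibody mice and 2.08 to 3.38 (median 2.25) in naive mice, and was called against both (1.23 ± 0.24, adjusted p = 0.00131 and 1.01 ± 0.31, adjusted p = 0.0473). H2-Ob, a B cell class II chain, was likewise called against both (1.48 ± 0.46, adjusted p = 0.0212 and 1.46 ± 0.41, adjusted p = 0.0349), and the first call was lost with the Actb covariate. Of 11 T cell markers tested, 1 passed, Thy1, at 0.39 ± 0.09 (adjusted p = 0.00304).

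In the epithelium, markers of mature colonocytes were lower, mostly by small amounts: 16 of 29 fell and 2 rose, with a median of -0.15. Of the 29, 9 had every combination array below every naive array (4.01% of all genes did). Aqp8, the water channel of surface colonocytes, fell by 0.97 ± 0.14 (adjusted p = 0.000179), at 10.98 to 11.91 (median 11.46) in combination mice, against 10.91 to 11.65 (median 11.40) in control antibody mice and 12.35 to 12.57 (median 12.50) in naive mice. Cdhr5, a protocadherin of the brush border, fell by 0.48 ± 0.06 (adjusted p = 7.98e-05), and Abcb1a, an efflux transporter, fell by 0.44 ± 0.05 (adjusted p = 2.27e-05). Abcb1a was also above its level in control antibody mice, by 0.35 ± 0.08 (adjusted p = 0.0169). Slc26a3, the chloride exchanger of the surface, fell by 0.31 ± 0.03 (adjusted p = 2.05e-05). Among junction proteins Cldn2, a pore-forming claudin, was higher by 0.71 ± 0.06 (adjusted p = 4.96e-06), with 12.55 to 12.86 (median 12.62) in combination mice, against 12.56 to 12.85 (median 12.65) in control antibody mice and 11.79 to 12.07 (median 12.00) in naive mice. The difference of Cldn2 between combination and control antibody mice was 0.00 ± 0.06, with a 95% interval from -0.13 to 0.13. Ocln, the tight junction protein occludin, fell by 0.35 ± 0.05 (adjusted p = 0.000271).

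Of 18 goblet cell markers 4 rose, close to the 21.9% of all genes, and none fell in combination mice, with a median difference of 0.05. In control antibody mice 5 were higher and 8 lower than in naive mice. Retnlb, an antiparasitic protein that goblet cells secrete, was higher by 0.71 ± 0.14 (adjusted p = 0.0017), and Spdef, a factor of goblet cell maturation, by 0.68 ± 0.09 (adjusted p = 0.000124). Muc2, the main gel-forming mucin, did not pass against naive mice (0.06 ± 0.03, adjusted p = 0.137) and was above control antibody mice by 0.12 ± 0.03 (adjusted p = 0.0349). Of 6 tuft cell genes 2 rose and 2 fell, where 21.9% of all genes rose and 16.2% fell. Trpm5, the channel of tuft cell taste signalling, fell by 1.59 ± 0.29 (adjusted p = 0.000922), at 3.72 to 5.20 (median 4.03) in combination mice, against 2.51 to 3.85 (median 3.21) in control antibody mice and 4.72 to 6.53 (median 6.01) in naive mice, and was also above the control antibody level (0.91 ± 0.27, adjusted p = 0.0446). Of 12 enteroendocrine genes 2 rose and 4 fell, beside the same shares of all genes, 21.9% and 16.2%. Sst, which encodes somatostatin, fell by 0.35 ± 0.09 (adjusted p = 0.00978) and was above the control antibody level by 0.64 ± 0.12 (adjusted p = 0.00996). Injury-induced and antimicrobial genes of the epithelium rose in 9 of 20 and fell in 2 (21.9% of all genes rose and 16.2% fell), with a median difference of 0.16. Slpi, a secreted protease inhibitor, was higher by 2.70 ± 0.50 (adjusted p = 0.000917) and Sprr2h, a cornified envelope gene, by 2.97 ± 0.52 (adjusted p = 0.000632), while Reg3g and Reg3b, antibacterial lectins, did not pass (-0.48 ± 0.29, adjusted p = 0.208 and -0.28 ± 0.13, adjusted p = 0.0997). Sprr2h was below its level in control antibody mice by a difference of -2.32 ± 0.61 (adjusted p = 0.0289).

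Cell division genes were higher as a group. Of 25 tested, 21 rose (21.9% of all genes did) and none fell, with a median of 0.42, and 20 were called higher with the Actb covariate. In control antibody mice 22 were higher, with a median of 0.58. In the 4 untreated mice only 6 of the 25 were higher than in naive mice and 2 were lower, with a median of 0.11. Set directly against untreated mice, 9 of the 25 were higher in combination mice (9.54% of all genes were) and 0 were lower. Mcm5, a subunit of the replicative helicase, lay at 9.94 to 10.97 (median 10.41) in combination mice, against 10.28 to 10.87 (median 10.62) in control antibody mice and 8.97 to 9.71 (median 9.46) in naive mice (0.99 ± 0.15, adjusted p = 0.000231 against naive). Cdc6, which loads that helicase, was higher than in naive mice (1.08 ± 0.22, adjusted p = 0.00164) and lower than in control antibody mice (-0.69 ± 0.19, adjusted p = 0.0323). Mki67, the proliferation antigen, was higher by 0.23 ± 0.05 (adjusted p = 0.00281). Chaperones of the endoplasmic reticulum and heat shock genes rose in 14 of 23 and fell in 2. Creld2, a stress-induced folding factor, was at 11.06 to 11.81 (median 11.56) in combination mice, against 11.73 to 12.25 (median 11.96) in control antibody mice and 10.46 to 10.69 (median 10.60) in naive mice, and was called against both (0.88 ± 0.10, adjusted p = 4.09e-05 and -0.52 ± 0.12, adjusted p = 0.0199). Of the 23, 10 were lower in combination than in control antibody mice (5.19% of all genes were), and none were higher. Sdf2l1, a partner of the chaperone BiP, was among them (-0.56 ± 0.11, adjusted p = 0.00996).

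The circadian clock genes differed in a 2-sided way. Of 16 tested, 8 fell and 4 rose, and for all 12 of these the combination arrays and naive arrays did not overlap (of all genes, 4.01% lay wholly below and 6.04% wholly above). Those that fell were Dbp, Tef and Hlf, the PAR-domain factors that follow the clock, the repressors Nr1d1 and Nr1d2, Per3 and Cry2 of the negative arm, and Ciart, a repressor that the clock drives. Those that rose were Arntl and Npas2 of the positive arm, Cry1, and Nfil3, the factor that opposes the PAR-domain proteins. Dbp lay at 9.08 to 10.47 (median 9.83) in combination mice, against 7.41 to 9.22 (median 8.28) in control antibody mice and 11.90 to 12.78 (median 12.24) in naive mice, and fell by 2.49 ± 0.19 (adjusted p = 2.95e-06). It was higher in combination than in control antibody mice by 1.35 ± 0.28 (adjusted p = 0.014). Ciart lay at 2.63 to 3.14 (median 2.75) in combination mice, against 4.77 to 8.09 (median 5.58) in naive mice (-3.04 ± 0.36, adjusted p = 5.22e-05), and its combination levels overlapped those of control antibody mice, 2.47 to 3.09 (median 2.64). Hlf fell by 2.99 ± 0.22 (adjusted p = 2.41e-06), Nr1d1 fell by 1.65 ± 0.17 (adjusted p = 1.6e-05) and Per3 fell by 1.30 ± 0.11 (adjusted p = 6.12e-06). Tef fell by 1.25 ± 0.11 (adjusted p = 6.86e-06), Cry2 fell by 0.79 ± 0.10 (adjusted p = 7.55e-05) and Nr1d2 fell by 0.62 ± 0.07 (adjusted p = 5.19e-05). In the other direction Arntl was at 9.58 to 10.53 (median 10.01) in combination mice, against 8.97 to 9.35 (median 9.16) in naive mice (0.93 ± 0.11, adjusted p = 5.96e-05), Nfil3 differed by 2.48 ± 0.42 (adjusted p = 0.000501) and Cry1 by 0.66 ± 0.10 (adjusted p = 0.000222). Per1 (-0.42 ± 0.56, adjusted p = 0.577), Per2 (-0.45 ± 0.19, adjusted p = 0.0768) and Clock (0.04 ± 0.05, adjusted p = 0.583) did not pass. Against control antibody mice 5 clock genes were higher and 1 lower in combination mice. With the Actb covariate 8 clock genes were called lower than in naive mice. The labels give no hour at which tissue was taken.

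Several clock genes of the other combination mice stood elsewhere. In the 8 combination mice of experiment 7, Ciart lay at 4.35 to 6.99 (median 5.65), against 2.63 to 3.14 in the combination mice and 4.77 to 8.09 in the naive mice of experiment 10. Tef lay at 11.17 to 12.23 (median 11.90) and Per3 at 10.67 to 11.88 (median 11.53) in the experiment 7 combination mice, both overlapping the naive range of experiment 10. Arntl lay at 7.47 to 8.77 (median 8.08) there, below all naive mice of experiment 10, where the combination mice of experiment 10 were above all of them. Control antibody mice of experiment 7 had Arntl between 9.17 and 9.82 (median 9.30) and Ciart between 2.90 and 4.62 (median 3.54). These levels were set side by side across experiments without a test.

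**Figure D4:**
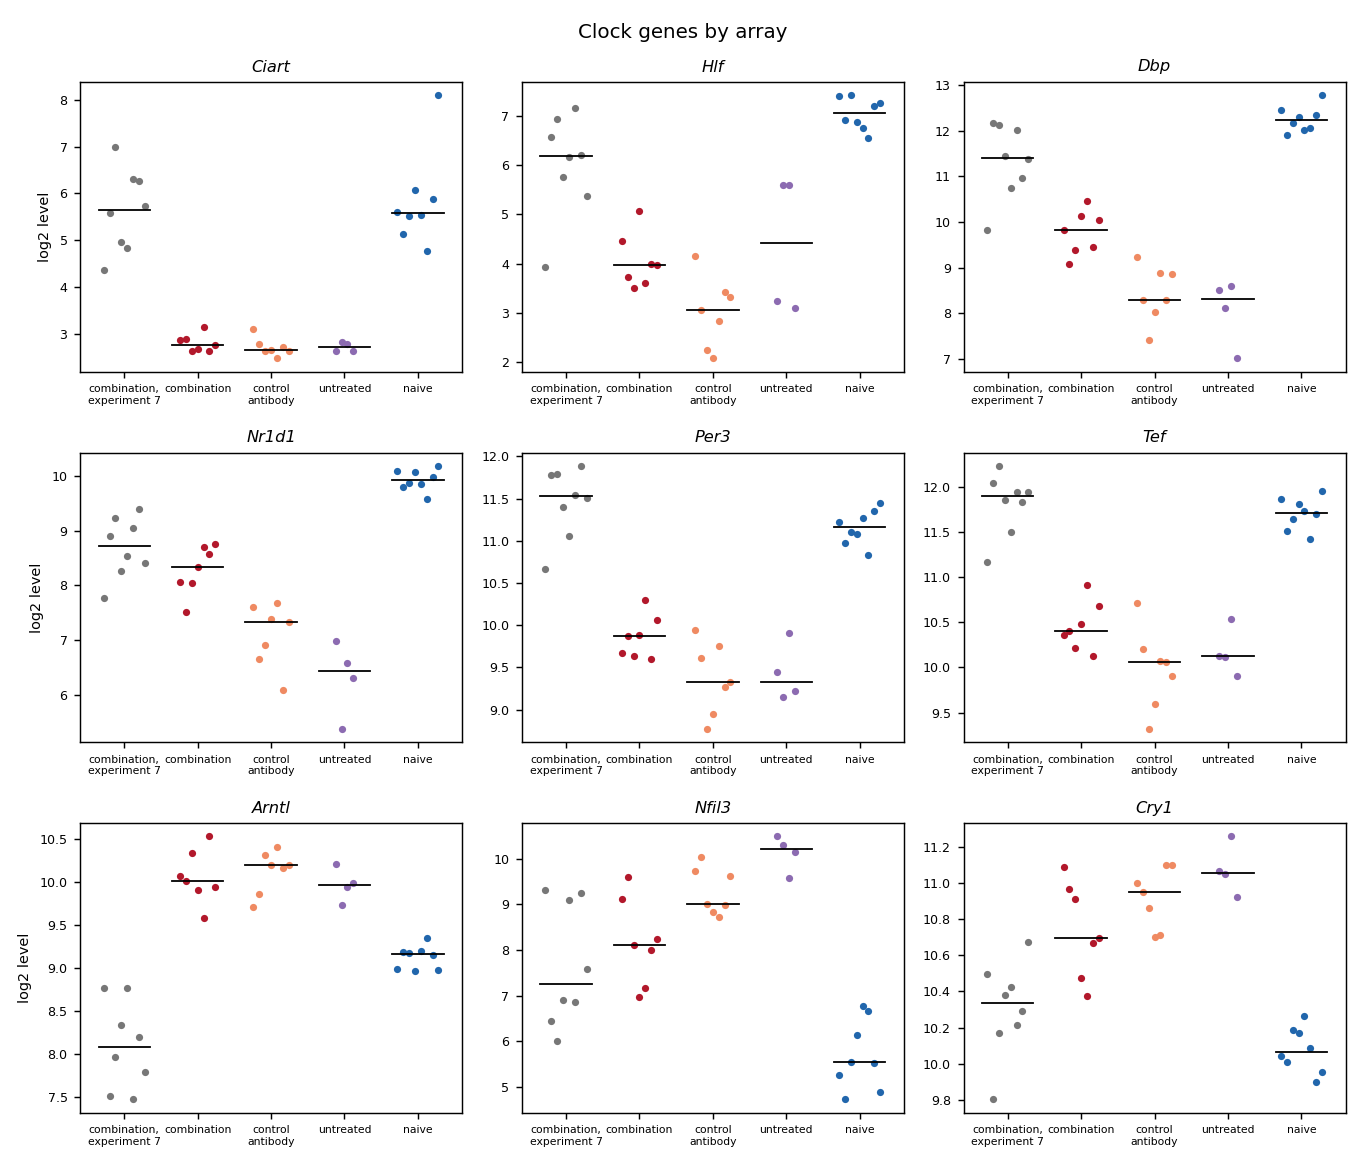
Log2 levels of 9 clock genes, 1 point per array, in combination mice of experiment 7 (8 arrays) and, of experiment 10, in combination (7), control antibody (7), untreated (4) and naive (8) mice, with medians as bars. In experiment 10 the combination and naive points of each gene do not overlap, while the experiment 7 combination points of Ciart, Tef and Per3 overlap the naive points.

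Among muscle, nerve and detoxification genes most of those called were lower. Of 17 smooth muscle markers 11 fell and none rose, with a median of -0.31, against 17 lower in control antibody mice (26.6% of all genes were) with a median of -0.57. Myh11, the smooth muscle myosin, lay at 13.54 to 13.95 (median 13.79) in combination mice, against 13.27 to 13.70 (median 13.46) in control antibody mice and 13.98 to 14.17 (median 14.06) in naive mice, and was called against both (-0.31 ± 0.06, adjusted p = 0.000877 and 0.32 ± 0.08, adjusted p = 0.0198). Pln, which restrains the calcium pump, fell by 0.64 ± 0.19 (adjusted p = 0.0148) and was not called with the Actb covariate. Of the 17, 6 were higher in combination than in control antibody mice (7.59% of all genes were). With the Actb covariate 1 smooth muscle marker was called lower than in naive mice. The per-mouse median of this list was -0.62 in combination mouse 1 and -0.45 in mouse 2, and between -0.33 and -0.07 in the other 5. Of 12 enteric neuron and glia markers 5 fell and 1 rose (16.2% and 21.9% of all genes did). Gfra1, a receptor for glial cell line-derived neurotrophic factor, fell, with a difference of -0.70 ± 0.18 (adjusted p = 0.00656). Enzymes of the cytochrome P450 and conjugation list fell in 15 of 25 and rose in 1. Cyp4b1, a fatty acid and xenobiotic hydroxylase, fell by 1.21 ± 0.18 (adjusted p = 0.000251), and Fmo2, a flavin monooxygenase, fell by 1.11 ± 0.13 (adjusted p = 5.09e-05). Cyp2d26 fell by 0.97 ± 0.14 (adjusted p = 0.000166) and was higher in combination than in control antibody mice by 0.77 ± 0.17 (adjusted p = 0.0166). The member that rose was Gsta4, a glutathione transferase for lipid aldehydes, at 0.43 ± 0.06 (adjusted p = 0.000121). Grin3a, among the largest falls, lay at 3.65 to 6.22 (median 3.99) in combination mice, against 2.19 to 5.09 (median 3.44) in control antibody mice and 7.26 to 8.08 (median 7.56) in naive mice (-3.16 ± 0.35, adjusted p = 2.84e-05).

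**Figure D5:**
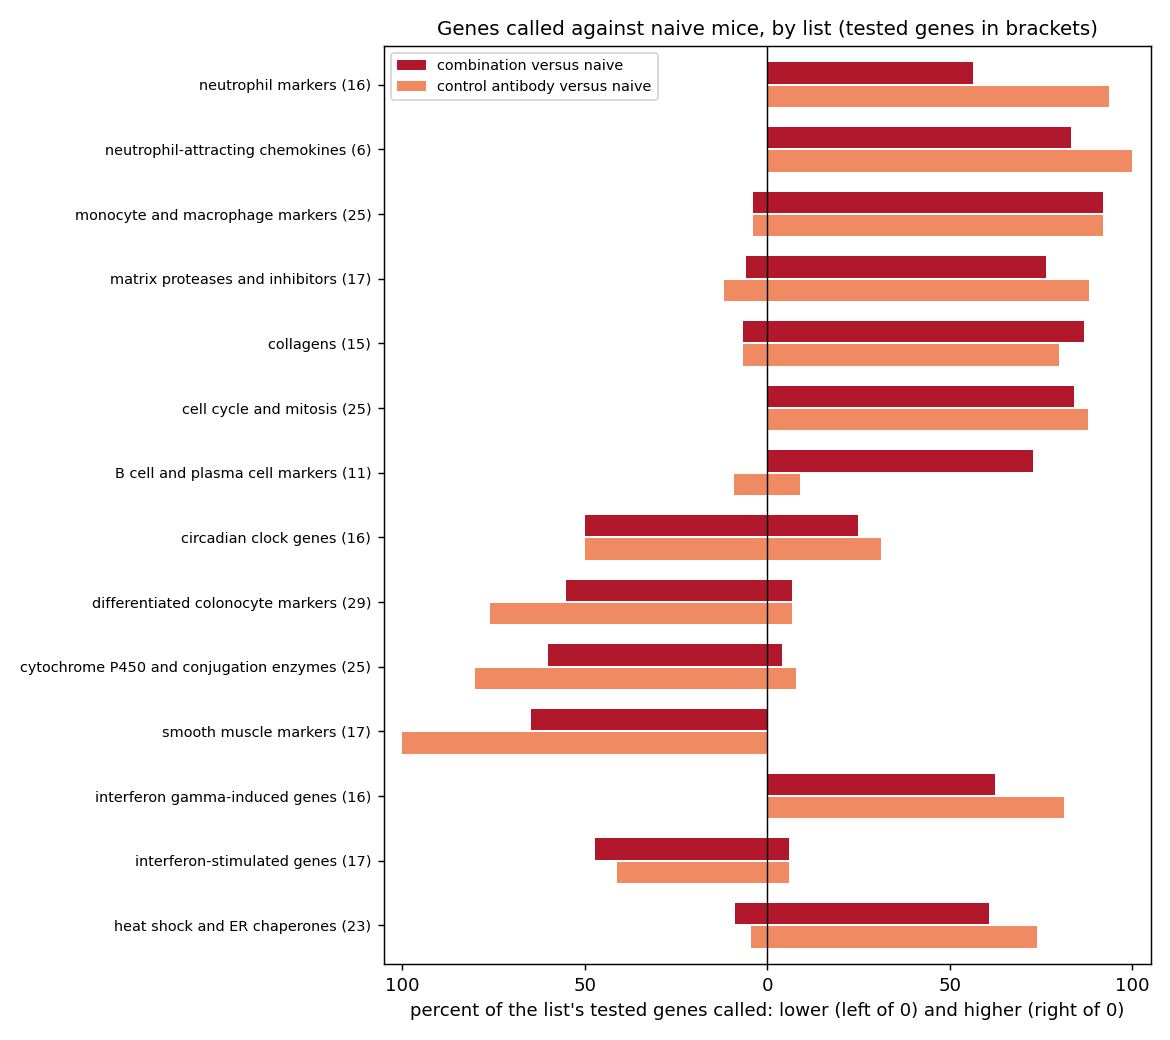
Percent of each list's tested genes called lower (bars left of 0) and higher (bars right of 0) against naive mice, in combination mice (upper bar, dark) and control antibody mice (lower bar, light), with the number tested in brackets. Over all genes 21.9% were called higher and 16.2% lower in combination mice, against 29.8% and 26.6% in control antibody mice.

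Genes of hair, not of colon, gave the largest falls. Krtap16-3 was at the floor on 6 of 7 combination arrays, against 2.26 to 10.62 (median 8.59) in naive mice, and Krtap8-1 was at the floor on 6 of 7 as well, against 2.12 to 9.76 (median 8.08) in naive mice. These differences, -5.12 ± 1.06 (adjusted p = 0.00195) and -4.72 ± 0.94 (adjusted p = 0.00155), depend on the floor. Of the hair list, 11 genes had a probe set and 4 passed the filter. All 4 were lower, and the 4 were lower in control antibody mice also. The filter used the mean over all arrays, so these genes may have passed it through their high naive levels. The count of 4 is therefore no test of the list. The summed level of 4 tested hair markers was 4.08 to 7.27 (median 4.08) in combination mice, against 4.22 to 12.01 (median 10.13) in naive mice. Its part in other results was not tested. Markers of exocrine pancreas, skeletal muscle and squamous epithelium had no called member of 10, 12 and 12 tested. The summed level of 6 tested pancreas markers was 12.61 to 15.82 (median 13.34) in combination mice, against 12.80 to 14.47 (median 13.15) in naive mice. Cela1, 1 of these 6, was at 12.21 or above on all these arrays, so the sum hides shifts of the others. The median over the pancreas list's 10 tested genes of the difference from the naive mean was -3.19 to 6.29 (median 2.38) in combination mice. In naive mice it was -3.60 to 4.21 (median -0.22). The summed level of 7 skeletal muscle markers was 10.56 to 14.02 (median 13.24) in combination mice, against 10.90 to 14.31 (median 13.38) in naive mice. For 5 tested squamous epithelium markers the sum was 7.77 to 12.50 (median 10.78) in combination mice, against 8.67 to 12.12 (median 10.78) in naive mice.

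Among the 10 largest differences between combination and control antibody mice were genes not yet described. Lrg1, a secreted leucine-rich glycoprotein of inflammation, was at 4.63 to 8.92 (median 7.31) in combination mice, against 8.28 to 10.31 (median 8.76) in control antibody mice and 2.96 to 3.90 (median 3.65) in naive mice (-2.31 ± 0.64, adjusted p = 0.0339). Bcat1, a branched-chain aminotransferase, showed the same order (-1.69 ± 0.45, adjusted p = 0.0303), with 5.23 to 8.16 (median 7.17) in combination mice, against 7.67 to 9.41 (median 8.77) in control antibody mice and 2.84 to 4.92 (median 3.71) in naive mice. Nmu, which encodes the neuropeptide neuromedin U, ran the other way, at 4.12 to 7.00 (median 5.90) in combination mice, against 2.79 to 4.93 (median 3.79) in control antibody mice and 6.68 to 7.36 (median 6.98) in naive mice, and was higher in combination than in control antibody mice by 1.83 ± 0.48 (adjusted p = 0.0276). Its call against naive mice (-1.43 ± 0.38, adjusted p = 0.00879) was lost with the Actb covariate. Against the 4 untreated mice combination mice differed in 1696 genes (13.5%), 1196 higher (9.54%) and 500 lower (3.99%). Chil3 lay at 2.45 to 10.36 (median 4.54) in combination mice, against 10.59 to 13.21 in untreated mice, a difference of -6.79 ± 1.60 (adjusted p = 0.0254). Timp1 was lower than in untreated mice by a difference of -3.46 ± 0.85 (adjusted p = 0.0297). In the combination mice of experiment 7, set beside these without a test, Clec4d was at 8.49 to 12.73 (median 10.73), S100a8 at 9.73 to 14.34 (median 12.61) and Mmp7 at 7.07 to 10.09 (median 8.64).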

How the data were processed

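RNA from colon of 72 mice was measured on 1 array each. The authors deposited log2 levels, per the series table, for 45101 probe sets; the tools listed, with no role or order, are R 2.11.1, limma 3.4.5, GCRMA and RMA (per the submitters' processing notes). The log2 unit was read from the values, which run from 2.08 to 15.98. No column of other samples was used. Of the probe sets, 34945 had 1 gene symbol in the platform annotation, 932 several and 9160 none, and 64 were controls. Of those with 1 symbol, 99.4% matched a RefSeq entry. Each of 18193 genes kept its brightest probe set, and 12534 with a mean at or above the 40th percentile (2.42) were tested.

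Group fits used limma 3.58.1 (lmFit and eBayes) in R 4.3.3, with Benjamini-Hochberg adjustment over all genes and a threshold of 0.05. Each comparison was fitted on its own 2 groups. The procedure was tested on simulated data. Figures were drawn with matplotlib 3.10.9 in Python 3.11.15. Samples were grouped by title, and each mouse is 1 replicate. The number of arrays limits the precision.

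The comparison and the gene lists were chosen with earlier results of these data known. Genes were named by rule: the 12 largest rises and falls, up to 4 called genes per list by size, the TNF and TWEAK pathway, 10 changed in control antibody but not called in combination mice, the 10 largest differences from control antibody mice and 8 farther from naive. Another 25 genes with values, mostly clock genes and textbook members of a list such as Muc2, Mki67, Myh11 and Col1a1, were chosen after their values were seen, as were the 5 promoters. Predicted or clone names (520 of the tested genes) were only counted. Alternatives varied the filter, normalization, moderation, array weights, arrays in the fit, replicate block and RNA quality covariate, and the arrays of the block fitted without it (chosen after seeing the data).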

Additional observations from a re-analysis of the deposited data

Results flagged for a closer look

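Of 294 sets of values tested, 1 gene or measure in 1 group each, 23 had a highest or lowest array that stood apart from the rest of its group by Dixon's test. For normally distributed values chance gives about 1 in 20. Sets with most arrays at the floor, such as those of Krtap16-3, Krtap8-1, Cxcl3 and Ptx3 below, need not follow that rate. Combination mouse 2 was highest of its group for Spdef (11.63). Combination mouse 2 was lowest of its group for Rsad2 (9.30) and Vil1 (13.70). Combination mouse 7 was highest of its group for Krtap16-3 (6.15) and Krtap8-1 (5.38). Combination mouse 7 was lowest of its group for Ccr2 (7.89). Combination mouse 8 was lowest of its group for Col8a1 (9.93). Naive mouse 1 was highest of its group for Mmp7 (5.66). Naive mouse 2 was lowest of its group for Actb 3′ minus 5′ difference (1.00). Naive mouse 4 was highest of its group for Cr2 (3.38). Naive mouse 5 was highest of its group for Cxcl2 (7.93), Cxcl3 (3.28), Il1b (6.92), S100a8 (9.07) and Timp1 (5.29). Naive mouse 6 was highest of its group for Plat (7.97). Naive mouse 6 was lowest of its group for Lrg1 (2.96). Naive mouse 7 was highest of its group for Ptx3 (2.15), a level that counts as at the floor here. Naive mouse 8 was highest of its group for Ciart (8.09) and Cxcr2 (3.08). Naive mouse 8 was lowest of its group for Ccl7 (2.57), Selp (3.79) and Tnfrsf1b (9.40). Naive mouse 5 and naive mouse 8 had 5 of these values each. Their part in the group differences was not tested beyond leaving out each array in turn.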

How the results depend on the processing

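Signs were checked for the named genes against naive mice, in every alternative but the fit of every probe set. No called difference of a named gene changed sign there. Among the differences not called, those of Per1, Reg3g, Nfkbia, Traf2, Clock and Actb did under at least 1. The counts of named genes that follow rest on the same alternatives. Of 238 named genes 208 were called, 124 of them under every alternative, and 84 were lost under at least 1. Against naive mice, combination mice had 4775 called genes, and 4189 (without combination mouse 1) to 4926 (without combination mouse 7) on leaving out single arrays. The ranges were 2448 to 2912 for higher, 1732 to 2210 for lower, 221 to 314 for higher by at least 1 and 101 to 143 for lower by at least 1. With the Actb covariate 2536 were called, 1572 higher and 964 lower, and 151 higher by at least 1. With all 72 arrays and an experiment term 3174 were called, 1673 of them higher. With every probe set tested there were 8153, with 4136 lower and 196 lower by at least 1, and the share called higher was 49.3%, against 57.4% with 1 probe set per gene. More features were tested there. The stricter filter left 153 higher and 32 lower by at least 1, from fewer genes tested. Against control antibody mice the 1601 became 1061 with no filter, 2986 with every probe set, 150 with the Actb covariate and 3908 with all 72 arrays, and 787 to 2109 on leaving out single arrays. The control antibody comparison with naive mice had 11892 with every probe set. Where no construction is given, the cause was not tested.

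Whether a replicate number marks a shared cage, day or batch cannot be told from so few pairs. Over the 7 numbers that combination and naive mice share the correlation of deviations was -0.27 to 0.54, above 0.1 in 3, and 1 mouse correlated best with its own number. Over the 6 that combination and control antibody mice share it was -0.34 to 0.55, above 0.1 in 3, and 2 correlated best with their own number. With the replicate block 4158 genes were called against naive mice and 4 against control antibody mice. The same arrays without the block, an alternative chosen after seeing the data, gave 4498 and 288. The fit of all 72 arrays ended the calls of Cyp4b1, Mki67, Npas2, Pln, Thy1 and Timp3. Levels at the floor carry no order.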

Other observations

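Dcpp3 had the largest difference of any gene between combination and control antibody mice, and its level differed from mouse to mouse within groups. In combination mice of experiment 10 its levels were 14.51 in mouse 1, 13.27 in mouse 2, 14.03 in mouse 3, 11.13 in mouse 5, 5.93 in mouse 6 and the floor of 2.08 in mice 7 and 8. It was at the floor on all 7 control antibody, 4 untreated, 6 TNFR-Ig and 8 naive arrays of experiment 10, and 1 of 6 anti-TWEAK arrays there reached 4.00. In experiment 7 it was more than 0.1 above the floor on 3 of 8 combination arrays (highest 14.44), 3 of 8 control antibody arrays (highest 14.25) and 2 of 4 untreated arrays (highest 13.07), and on none of the 8 anti-TWEAK and 6 TNFR-Ig arrays. The differences fitted for Dcpp3, 6.93 ± 1.83 (adjusted p = 0.00879) from naive mice and 6.93 ± 1.97 (adjusted p = 0.0371) from control antibody mice, are measured from the floor, and neither was called with the Actb covariate.

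Some genes lay farther from the naive level in combination than in control antibody mice, in 2 comparisons that share the combination arrays. Krba1 was at 6.17 to 6.82 (median 6.62) in combination mice, against 5.58 to 6.43 (median 5.96) in control antibody mice and 5.25 to 5.99 (median 5.69) in naive mice (0.86 ± 0.12, adjusted p = 0.000124 against naive and 0.62 ± 0.12, adjusted p = 0.0119 against control antibody). Cx3cr1, the fractalkine receptor of resident macrophages, was at 4.70 to 5.47 (median 5.06) in combination mice, against 4.48 to 4.93 (median 4.73) in control antibody mice and 3.90 to 4.45 (median 4.36) in naive mice (0.80 ± 0.11, adjusted p = 0.000143 and 0.38 ± 0.12, adjusted p = 0.0464). Pde3a, a phosphodiesterase of muscle and platelets, was lower in combination mice than in both other groups, at 4.19 to 5.20 (median 4.89), against 4.95 to 5.97 (median 5.47) in control antibody mice and 5.28 to 6.36 (median 5.55) in naive mice (-0.82 ± 0.17, adjusted p = 0.00201 and -0.67 ± 0.17, adjusted p = 0.0244).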
